A study of Mus musculus with 8 samples.

Results

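The mitochondrial ribosomal protein genes are the nuclear genes, named Mrpl for the large subunit or Mrps for the small subunit, that encode the protein part of the ribosome inside mitochondria. They were taken by symbol, as Mrpl or Mrps followed by a number and at most 1 letter, which gave 76 of the 23420 genes measured, 47 named Mrpl and 29 named Mrps. By the place of the protein, 26 belong to the small subunit and 49 to the large subunit, Mrps18a and Mrps30 among the latter. The remaining gene, Mrps36, keeps a ribosomal name although its protein is a component of the 2-oxoglutarate dehydrogenase complex.

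The RNA came from head mesenchyme of mouse embryos, and both groups share strain (C57BL/6), genotype (wild type) and age (E12.5). Early migrating mesenchyme (EMM) and supraorbital mesenchyme (SOM), which lies above the eye, were represented by 4 libraries each. Every library came from a pool of 4 to 5 embryos, after dispase digestion and removal of the surface ectoderm and the brain. The sources used here do not say if the pools of the 2 groups share embryos, and p-values measure the spread between these pools.

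The mitochondrial ribosome translates the few messenger RNAs that the mitochondrial genome encodes, all of them for core subunits of the respiratory chain and the ATP synthase. Its ribosomal RNAs are mitochondrial transcripts, whereas all of its proteins are encoded in the nucleus, made in the cytosol and imported, and many of them have no bacterial counterpart. Binding sites for the transcription factors NRF1, the ETS factor GABP and YY1 are known from the promoters of many nuclear genes for mitochondrial proteins. The 13 mitochondrially encoded messenger RNAs and 2 ribosomal RNAs were looked up by symbol. None was found among the genes measured, so they were not analysed here.

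The 150 bases before the RefSeq start of 5 of the genes are printed here as examples of motif matches. They include those of the member with the second highest difference toward SOM and of the only member that was higher in EMM. Most of these stretches hold a match for ETS factors, so they are not typical of the members, as the shares below show. They come from RefSeq (GRCm38.p6) and are written 5′ to 3′ on the strand of the gene. Capitals mark matches on either strand to the letters GCGCATGC for NRF1, CCGGAAG for ETS factors, AAGATGGCG for YY1, CACGTG for the E-box and CCAAT for the CCAAT box. None of them overlaps an exon of another gene in GENCODE M21, but the stretches of Mrpl3, Mrpl23 and Mrpl22 hold 29, 20 and 3 exonic bases of the gene itself, where GENCODE places a start further upstream than RefSeq.
Mrpl23, chr7:142532882-142533031, plus strand: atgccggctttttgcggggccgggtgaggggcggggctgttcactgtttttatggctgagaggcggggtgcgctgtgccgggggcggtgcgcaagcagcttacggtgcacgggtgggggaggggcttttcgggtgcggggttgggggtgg
Mrpl52, chr14:54426759-54426908, plus strand: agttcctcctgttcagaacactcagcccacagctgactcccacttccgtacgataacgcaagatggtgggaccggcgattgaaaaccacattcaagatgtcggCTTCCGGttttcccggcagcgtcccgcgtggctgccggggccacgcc
Mrps22, chr9:98601680-98601829, minus strand: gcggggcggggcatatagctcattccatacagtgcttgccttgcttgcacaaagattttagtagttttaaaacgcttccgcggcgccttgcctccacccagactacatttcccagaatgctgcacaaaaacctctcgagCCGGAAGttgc
Mrpl22, chr11:58171514-58171663, plus strand: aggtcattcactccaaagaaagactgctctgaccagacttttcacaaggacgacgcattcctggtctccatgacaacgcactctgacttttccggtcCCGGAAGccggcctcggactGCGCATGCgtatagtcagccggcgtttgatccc
Mrpl3, chr9:105053118-105053267, plus strand: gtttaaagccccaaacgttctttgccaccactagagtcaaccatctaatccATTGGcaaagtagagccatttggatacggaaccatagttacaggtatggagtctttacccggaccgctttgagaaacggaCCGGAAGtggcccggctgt
The ETS letters lie 47 bases before the start in Mrpl52, 11 in Mrps22, 53 in Mrpl22 and 19 in Mrpl3. Mrpl22 also holds the NRF1 letters at 33 bases, and Mrpl3 the CCAAT letters at 99 bases, while the stretch of Mrpl23 holds none of the 5 motifs. The Mrpl23 stretch lies wholly inside the gene as GENCODE bounds it, and the bases before that earlier start were not searched.

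The windows tabulated for each gene run from 250 bases before to 50 bases after a start, and 67 of the 76 genes had at least 1 such window, 73 in all. The ETS letters were present in 32.9% of these windows, against 15.7% of the windows of all genes that passed the expression filter and 8.86% of all windows of the same length. The NRF1 letters were present in 8 of the 73 member windows, against shares of 4.90% and 2.71% in the other 2 sets, and the YY1 letters also in 8 of 73, against 2.67% and 1.40%. The CCAAT letters (41.1% against 37.2% and 37.4%) and the E-box letters (9.59% against 9.69% and 7.15%) were at nearly the same share in all 3 sets. No member window had overlapping matches of different motifs. In 34 of the 67 genes at least 1 window held NRF1, ETS or YY1 letters. By window, 46.6% of the member windows held them, against 21.5% of the windows of genes that passed the expression filter. The 24 genes with ETS letters had a median difference between the regions of 0.36 on the log2 scale and the 43 genes without them a median of 0.37, where positive values mean higher in SOM. The medians with and without the letters were 0.29 and 0.37 for NRF1 (8 genes with them) and 0.31 and 0.37 for YY1 (8 genes). They were 0.37 and 0.33 for the CCAAT box (27 genes) and 0.38 and 0.36 for the E-box (5 genes). Whether genes with and without a motif differ was not tested.

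Almost all of the mitochondrial ribosomal protein genes were higher in SOM than in EMM, by a modest amount. Of the 76 genes, all of which passed the filter of at least 10 normalized counts in at least 4 libraries, 70 were higher in SOM and 1, Mrpl3, was higher in EMM, and 5 did not pass the test (limma on log2(normalized count + 1), Benjamini-Hochberg adjusted p below 0.05 over the 14249 genes tested). The background is wide, since 36.0% of all tested genes were called higher in SOM and 36.1% higher in EMM. The median log2 difference, SOM minus EMM, was 0.37 over the 76 genes and 0.01 over all genes tested. Among the 70 genes called higher in SOM the differences ran from 0.16 to 0.79, or from 1.12-fold to 1.73-fold in the group means. None of the 76 genes differed by 2-fold or more, as 16.3% of all tested genes did, and 5 were at least 1.5-fold higher in SOM, namely Mrpl4, Mrpl23, Mrps35, Mrpl14 and Mrpl52. In 63 of the genes every SOM library lay above every EMM library (32.9% of all tested genes), in 1 every EMM library lay above every SOM library (33.2%), and in 12 the groups overlapped. By the authors' deposited table, 65 of the genes were higher in SOM and 1 in EMM at the same threshold, where 28.1% and 29.1% of all genes with an adjusted p were called in these directions.

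**Figure D1:**
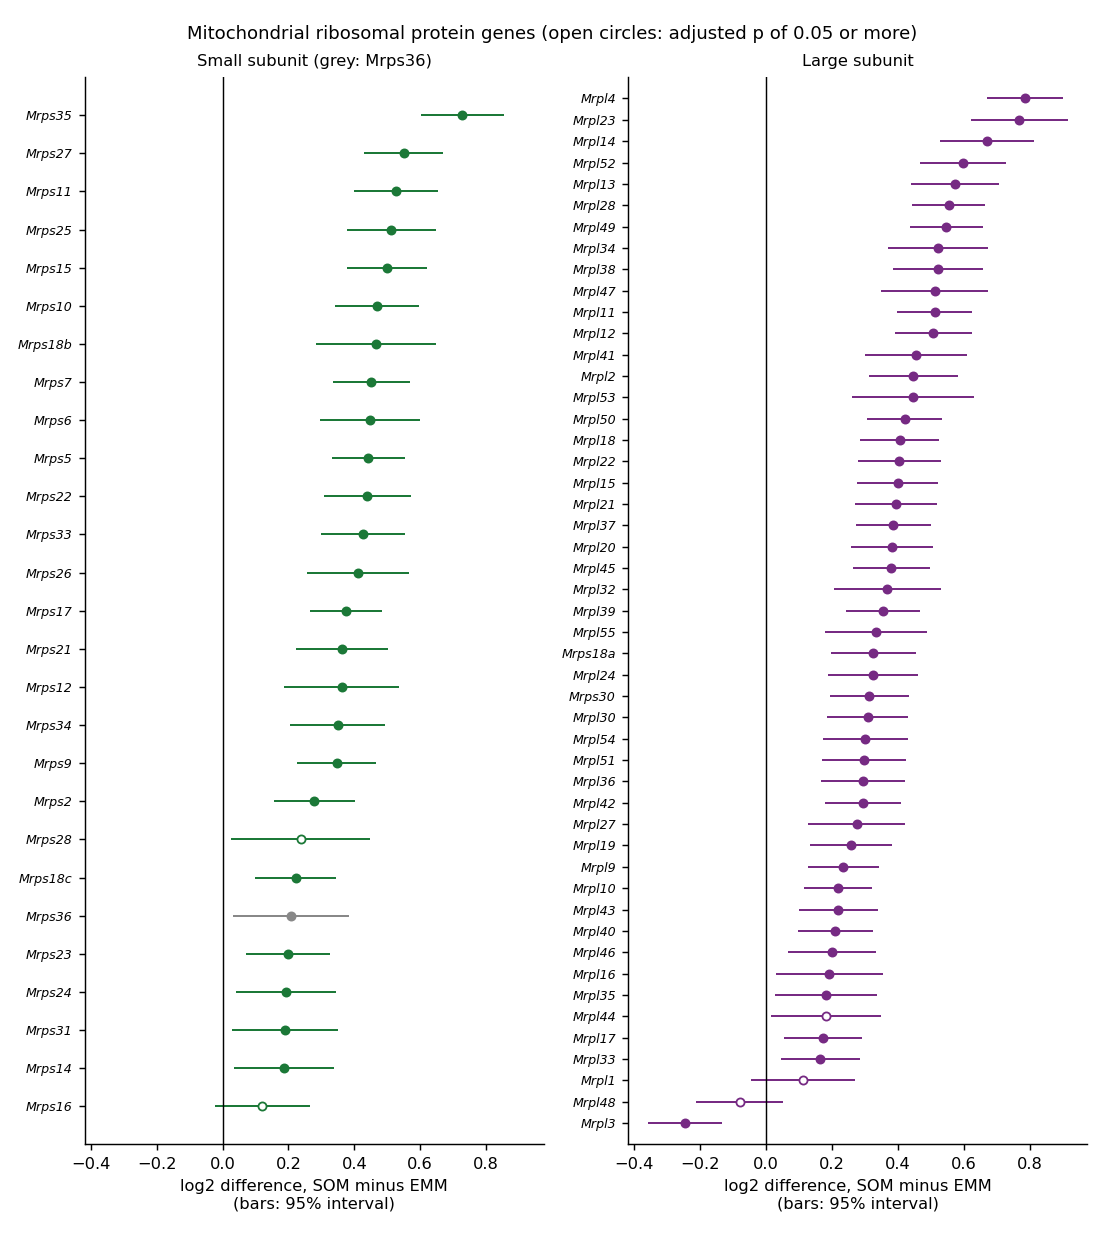
Log2 difference between SOM and EMM (x axis, SOM minus EMM, bars are 95% intervals) for each of the 76 genes, small subunit at left, with Mrps36 in grey, and large subunit at right. Filled points passed the adjusted p threshold; 70 lie to the right of zero, Mrpl3 alone lies to the left among them, and 5 open points did not pass.

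The rise was seen in both subunits. In the small subunit 24 of 26 genes were higher in SOM and 2 did not pass the test, with a median difference of 0.39. In the large subunit 45 of 49 were higher in SOM, 1 was higher in EMM and 3 were not called, and the median was 0.35. Genes whose proteins have a bacterial counterpart (42 of 46 higher in SOM, median 0.37) and genes of proteins that are specific to mitochondria (27 of 29, median 0.38) had nearly the same medians. Mrps18a and Mrps18b were counted among the 29, although their proteins are related to a bacterial protein. Whether the subunits or the 2 classes differ from each other was not tested. The summed normalized counts of the large subunit genes were 2.22 to 2.28 times those of the small subunit genes in all 8 libraries, so this ratio hardly moved between the regions.

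Among the large subunit genes the highest difference was that of Mrpl4, a homologue of a bacterial protein that lines the exit tunnel for the growing chain. Mrpl4 (chr9:21002738-21008839, GRCm38, plus strand) stood at 868, 853, 886 and 910.1 normalized counts in EMM replicates 1 to 4 and at 1544, 1529.6, 1617 and 1384 in SOM replicates 1 to 4. The lowest SOM library lay far above the highest EMM library. The group means were 879 ± 24.7 and 1519 ± 97.5 (SD, n = 4 libraries each), a 1.73-fold difference (log2 0.79, SE 0.06, limma adjusted p = 4.51e-09).

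Mrpl23, whose bacterial homologue sits at the mouth of the tunnel, and Mrpl14, at the face between the subunits, followed. Mrpl23 (chr7:142532686-142540747) stood at 562, 638, 639.8 and 582 in EMM and at 1039, 1090.2, 1107 and 899.6 in SOM, with SOM replicate 4 below the other SOM libraries and above all EMM libraries. Its log2 difference was 0.77 (SE 0.07, limma adjusted p = 9.66e-08). Mrpl14 (chr17:45686322-45698495) was at 349.5, 376, 363 and 369 in EMM and 563, 613, 617 and 531 in SOM, again without overlap, with a log2 difference of 0.67 (SE 0.07, limma adjusted p = 3.69e-07). It shares 106 exonic bases, 11.2% of its exonic length, with Tmem63b on the other strand. Mrpl52, a protein without a bacterial counterpart, rose from 672 ± 19.2 to 1019 ± 82.9 (SD, n = 4 each, log2 0.60, limma adjusted p = 4.85e-07), and Mrpl13, the homologue of a bacterial large subunit protein, from 1093 ± 88.3 to 1626 ± 114 (log2 0.57, limma adjusted p = 1e-06).

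In the small subunit the highest difference was that of Mrps35, which is specific to mitochondria. Mrps35 (chr6:147042764-147073991, plus strand) stood at 420.1, 459, 446 and 421 in EMM and at 740.4, 740.3, 721 and 693 in SOM. The groups were clearly separate, with little spread inside either of them. The means of 437 ± 19.2 and 723 ± 22.6 (SD, n = 4 each) gave a 1.66-fold difference (log2 0.73, SE 0.06, limma adjusted p = 3.14e-08). Mrps27, a pentatricopeptide repeat protein of the small subunit, was at 603, 613, 655 and 630.1 in EMM and 949, 916, 941 and 857 in SOM, without overlap (log2 0.55, SE 0.06, limma adjusted p = 4.26e-07). It shares 506 exonic bases, 24.2% of its exonic length, with the opposite-strand gene 6430562O15Rik.

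Mrps11, Mrps25 and Mrps15 completed the 5 highest differences of the small subunit. Mrps11, the homologue of a bacterial platform protein, rose from 614 ± 14.5 to 886 ± 63.4 (SD, n = 4 each, log2 0.53, limma adjusted p = 1.43e-06). Mrps25, specific to mitochondria, rose from 649 ± 20.4 to 928 ± 79.7 (log2 0.51, limma adjusted p = 4.11e-06), and Mrps15, the homologue of a bacterial protein that binds ribosomal RNA early in assembly, from 889 ± 48.5 to 1256 ± 75.4 (log2 0.50, limma adjusted p = 1.75e-06). Of the exonic bases of Mrps25, 69.8% are shared with Nr2c2 on the other strand, and since the sources used here do not say if counting was stranded, reads of that pair cannot be told apart. Among the 76 genes, 32 overlap exons of another annotated gene, 7 of them over 25% of their length. The 44 genes that share none had 41 higher in SOM and 3 not called, with a median of 0.37. The 32 that do share had 29 higher in SOM, 1 higher in EMM and 2 not called, with a median of 0.34.

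**Figure D2:**
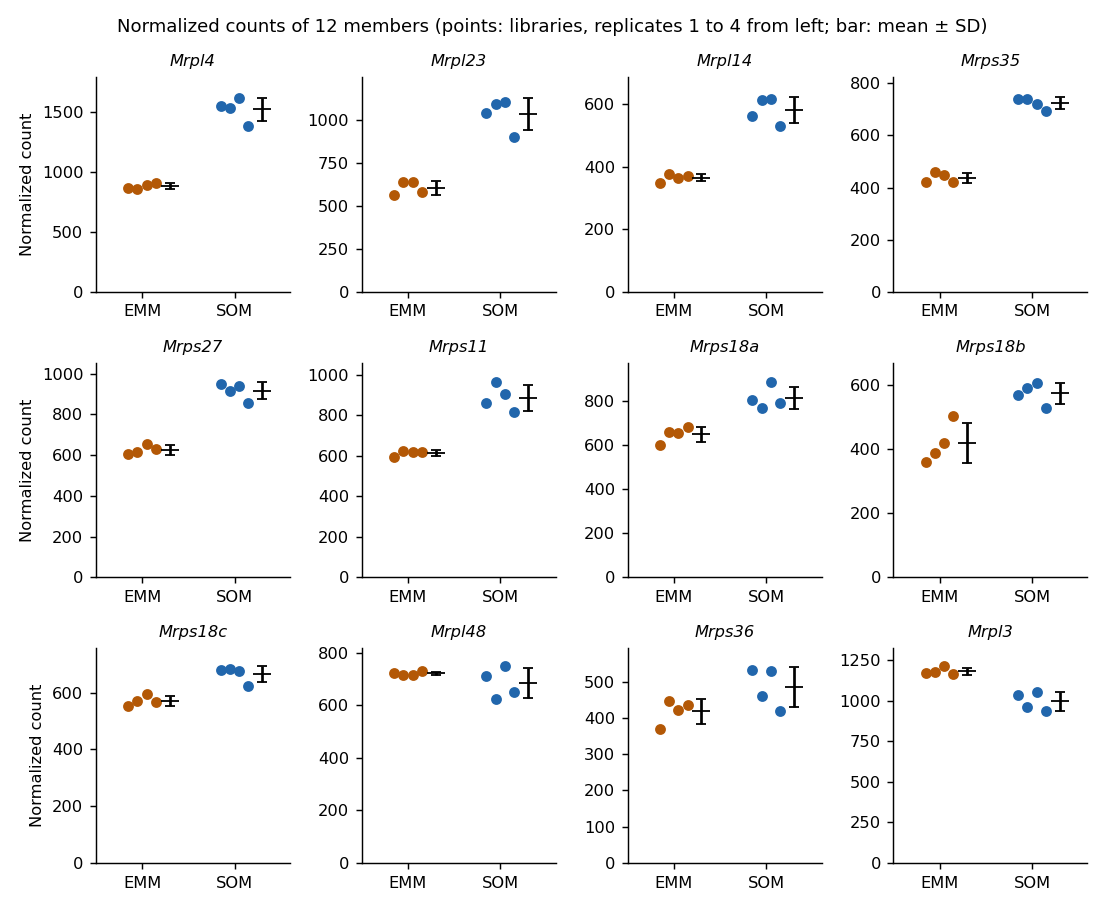
Normalized counts (y axis, from zero) of 12 of the genes in the 4 EMM and 4 SOM libraries; points are libraries in the order of their replicate numbers and bars are the mean ± SD of the group. Mrpl4, Mrpl23, Mrpl14 and Mrps35 are well separated, Mrpl48 and Mrps36 overlap between the groups, and Mrpl3 is lower in SOM.

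Mrpl3 went the other way. Its protein is the homologue of bacterial L3, a protein close to the catalytic centre of the large subunit. Mrpl3 (chr9:105053239-105079888, plus strand) stood at 1169, 1178, 1213 and 1167 in EMM and at 1035, 961, 1058 and 936 in SOM, and every SOM library was below every EMM library. The means were 1182 ± 21.1 in EMM and 998 ± 57.9 in SOM (SD, n = 4 each), which is 1.18-fold higher in EMM (log2 -0.25, SE 0.06, limma adjusted p = 0.000839). Only 3.7% of its exonic bases are shared with other annotated genes.

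Of the 5 genes that did not pass the test, Mrpl48 was the only one with a value toward EMM. It stood at 725, 718, 717 and 731 in EMM, a very narrow range, and at 714, 625, 751 and 649.8 in SOM, on both sides of that range. The log2 difference was -0.08 (95% interval -0.21 to 0.05, limma adjusted p = 0.279), and it turned to 0.031 when the libraries were scaled to equal totals. Mrpl1 had a difference of 0.11 (-0.04 to 0.27), Mrps16 of 0.12 (-0.02 to 0.26), Mrpl44 of 0.18 (0.02 to 0.34) and Mrps28 of 0.24 (0.03 to 0.44), given with 95% intervals that are not adjusted for the number of genes. Without SOM replicate 4, Mrps16 (0.19, limma adjusted p = 0.0135), Mrpl44 (0.23, limma adjusted p = 0.0269) and Mrps28 (0.29, limma adjusted p = 0.0288) passed the test. Mrpl44 also passed without EMM replicate 2 (0.25) and Mrps28 without EMM replicate 3 (0.28) or EMM replicate 4 (0.29). With TMM scaling Mrpl44 (0.19, limma adjusted p = 0.0484) and Mrps28 (0.25, limma adjusted p = 0.0444) passed as well.

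The Mrps18 proteins are related to a single bacterial protein, S18, and occupy different places, Mrps18a in the large subunit and Mrps18b and Mrps18c in the small subunit. All 3 genes were higher in SOM. Mrps18b, which shares 30.5% of its exonic bases with an opposite-strand gene, rose from 419 ± 62.1 to 575 ± 33.6 (SD, n = 4 each, log2 0.47, limma adjusted p = 0.000254). Its EMM libraries ranged widely, at 361, 390.4, 420.2 and 505, all below the SOM values of 572, 591, 608 and 530.2. Mrps18a rose from 650.3 ± 33.6 to 815 ± 51.2 (log2 0.32, limma adjusted p = 0.000274) and Mrps18c from 571 ± 17.8 to 666 ± 27.8 (log2 0.22, limma adjusted p = 0.00385). Differences among the 3 paralogs were not tested.

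Mrps36, which is no ribosomal protein by function, was at 370.0, 448, 423 and 436 in EMM and 533, 460.4, 529 and 421 in SOM, and the groups overlapped. Its log2 difference of 0.21 lay just inside the threshold (SE 0.09, limma adjusted p = 0.0452). The call was lost with no filter on low values (limma adjusted p = 0.0628) and without EMM replicate 1 (0.15), EMM replicate 3 (0.21), EMM replicate 4 (0.23), SOM replicate 1 (0.16) or SOM replicate 3 (0.16). DESeq2 on the recovered reads gave an adjusted p of 0.0551 for Mrps36, and the authors' deposited table an adjusted p of 0.0634.

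Levels were compared between genes per kilobase of exon. On that scale the mean over both regions ran from 61.5 normalized counts per kb in Mrps10 to 1427 in Mrps21, a 23.2-fold range with a median of 346, and with the longest transcript as the length the range was 20.6-fold. Mrps21 and Mrps33 were the highest of the small subunit, and Mrpl54 and Mrpl28 of the large subunit. This order depends on the length used, since per kb of the longest transcript Mrpl20 (1509) stood above Mrpl28 (1289.6) and Mrpl47 (105) below Mrps10 (121). Mrps21, the homologue of a bacterial small subunit protein, had a level of 1247 per kb in EMM and 1607 in SOM. Mrps33, which is specific to mitochondria, had 589 and 793, Mrpl54 1010.1 and 1247, and Mrpl28 858 and 1261 per kb. All 4 were called higher in SOM, with log2 differences of 0.36 for Mrps21, 0.43 for Mrps33, 0.30 for Mrpl54 and 0.55 for Mrpl28. The median level was 298 per kb in the small subunit and 384 in the large subunit.

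The separation of the regions was visible library by library, with 1 SOM library lower than the others. The 76 genes together took 0.237%, 0.243%, 0.242% and 0.246% of the reads in EMM replicates 1 to 4, and 0.352%, 0.345%, 0.347% and 0.307% in SOM replicates 1 to 4. The share was higher in every SOM library than in any EMM library, and lowest within SOM in replicate 4. SOM replicate 4 was the lowest SOM library in 65 of the 76 genes (85.5%), where 28.7% of all tested genes had their lowest SOM value in that library. The median deviation of the genes from their SOM mean was -0.12 on the log2 scale in that library, against 0.00 for all tested genes, -0.09 for cytosolic ribosomal protein genes and 0.01 for cell division genes. The groups were apart in 63 genes with all libraries and in 69 without SOM replicate 4, and 72 genes were called higher in SOM without it. In EMM, replicate 1 was the lowest library in 35 of the 76 genes (46.1%), against 24.9% of all tested genes. The median deviation of the genes from their EMM mean was -0.04 in that library, against 0.00 for all tested genes. Within EMM the genes had a median log2 SD of 0.06, where all tested genes had 0.10. Within SOM the values were close to each other, at 0.10 and 0.11. The members and all tested genes were not matched for level.

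**Figure D3:**
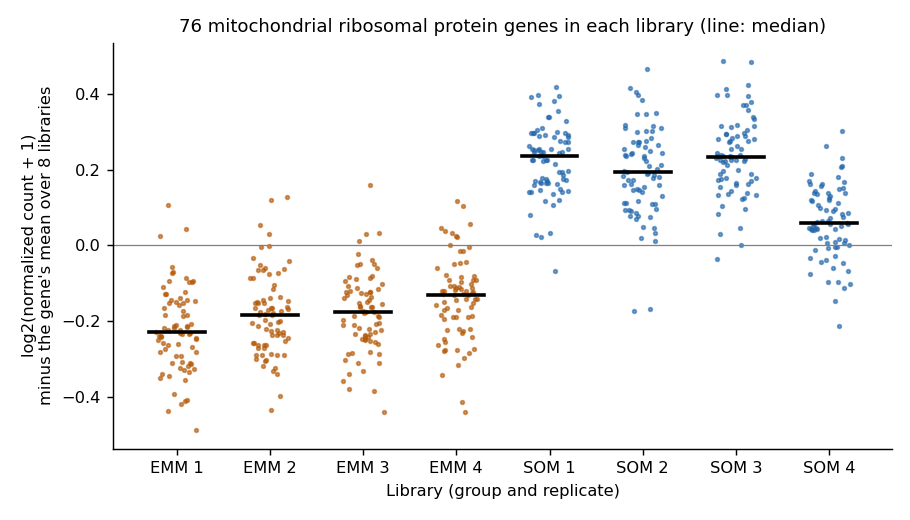
Log2(normalized count + 1) of each of the 76 genes in each library, minus the mean of the gene over the 8 libraries (y axis); points are genes and lines are medians. The 4 SOM libraries have higher medians than the 4 EMM libraries, and SOM replicate 4 lies between the other SOM libraries and EMM.

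The 6 mitoribosome proteins with other names all rose with them. Ptcd3, a small subunit protein with pentatricopeptide repeats, went from 1425 ± 40.1 in EMM to 2027 ± 98.1 in SOM (SD, n = 4 each, log2 0.51, limma adjusted p = 1.98e-07). Gadd45gip1, in the large subunit, went from 665 ± 36.1 to 959 ± 78.7 (log2 0.52, limma adjusted p = 3.63e-06). The 6 genes had a median of 0.44. Mrp63, the older symbol of Mrpl57 and outside the naming rule, was described after the values were seen and stood at 369 ± 35.5 in EMM and 475 ± 38.3 in SOM (log2 0.36, limma adjusted p = 0.00105).

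Genes for building the mitochondrial ribosome were more mixed. Of 27 assembly and ribosomal RNA modification genes, 16 were called toward SOM and 3 toward EMM, while 8 were not called, and the median was 0.25. Dhx30, an RNA helicase of ribosome assembly, rose from 2279.9 ± 39.8 to 3146 ± 189 (SD, n = 4 each, log2 0.46, limma adjusted p = 4.87e-07), and the GTPase gene Noa1 had a difference of 0.50 (limma adjusted p = 9.92e-06). On the other side, Mterfd2 (Mterf4), which recruits a ribosomal RNA methyltransferase to the large subunit, stood at 2399.7, 2254, 1869 and 2224 in EMM and only 991, 845, 823 and 849 in SOM. It was 2.49-fold higher in EMM (log2 -1.32, SE 0.08, limma adjusted p = 1.59e-09), with no overlap between the groups. Mpv17l2, also tied to ribosome assembly, differed by -0.55 (limma adjusted p = 0.000217).

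In the machinery around the ribosome, 7 of 14 mitochondrial translation factors were higher in SOM and 7 were not called, and the median was 0.19. Tufm, the elongation factor that delivers aminoacyl-tRNA, rose from 1895 ± 69.3 to 2555 ± 160.4 (SD, n = 4 each, log2 0.43, limma adjusted p = 2.27e-06), and Guf1, a GTPase related to bacterial LepA, had a difference of 0.49 (limma adjusted p = 1.38e-06). Of 20 genes for charging mitochondrial tRNAs, 14 were called toward SOM and 1 toward EMM, while 5 were not called, and the median was 0.38. Gatc, a subunit of the amidotransferase that makes glutaminyl-tRNA, had a difference of 0.59 (limma adjusted p = 2.29e-07) and Vars2, the valyl-tRNA synthetase, of 0.48 (limma adjusted p = 3.5e-06). The gene called toward EMM was Lars2, the leucyl-tRNA synthetase, listed at 28554, 33909, 24972 and 27238 in EMM and 18461, 16943, 11342 and 18809.8 in SOM. It was higher in EMM (log2 -0.83, SE 0.19, limma adjusted p = 0.0062).

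Of 14 genes of mitochondrial DNA maintenance and transcription, 12 were called toward SOM and 1 toward EMM, while 1 was not called, and the median was 0.37. Peo1 (Twnk), the mitochondrial DNA helicase, rose from 538 ± 31.9 to 918 ± 30.5 (SD, n = 4 each, log2 0.77, limma adjusted p = 1.45e-08), and Polrmt, the mitochondrial RNA polymerase, from 776 ± 22.2 to 1256 ± 96.0 (log2 0.69, limma adjusted p = 4.04e-08). Polg, the catalytic subunit of the mitochondrial DNA polymerase, was higher in EMM (log2 -0.44, limma adjusted p = 4.13e-06). Among 10 known regulators of mitochondrial gene expression, 4 were called toward SOM and 2 toward EMM, and 4 were not called. The median of the 10 was 0.04. Of all tested genes, 36.0% were called toward SOM and 36.1% toward EMM.

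The regulators were called in both directions, as all tested genes were. Myc, a transcription factor that drives growth genes, stood at 623, 607, 673 and 687 in EMM and 1794, 1888, 2149.6 and 1709 in SOM, and its groups were far apart (log2 1.54, SE 0.07, limma adjusted p = 1.59e-11). Ppargc1a, a coactivator of mitochondrial biogenesis, stood at 274, 217, 261 and 228 in EMM and 61.7, 47.6, 57.4 and 64.8 in SOM, the opposite order (log2 -2.07, SE 0.13, limma adjusted p = 7.86e-10). The subunits of the ETS factor GABP moved in opposite directions, Gabpb1 toward SOM (log2 0.36, limma adjusted p = 1.15e-05) and Gabpa, which binds DNA, toward EMM (log2 -0.39, limma adjusted p = 1.48e-05).

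Beside these genes, 75 of 78 tested cytosolic ribosomal protein genes were higher in SOM and 3 were not called, and their median was 0.48. Of 72 nuclear genes for oxidative phosphorylation subunits, 60 were called toward SOM and 1 toward EMM, while 11 were not called. Their median was 0.24. They include the genes of complex II, which has no mitochondrially encoded subunit. The gene called toward EMM was 1 of these, Sdhd (log2 -0.17, limma adjusted p = 0.00519). Another complex II gene, Sdhb, was called toward SOM (log2 0.24, limma adjusted p = 0.000288). Sdha (log2 0.04) and Sdhc (log2 -0.05) were not called. These 2 lists were chosen by symbol after the values were seen. Whether the 3 families differ from each other was not tested.

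**Figure D4:**
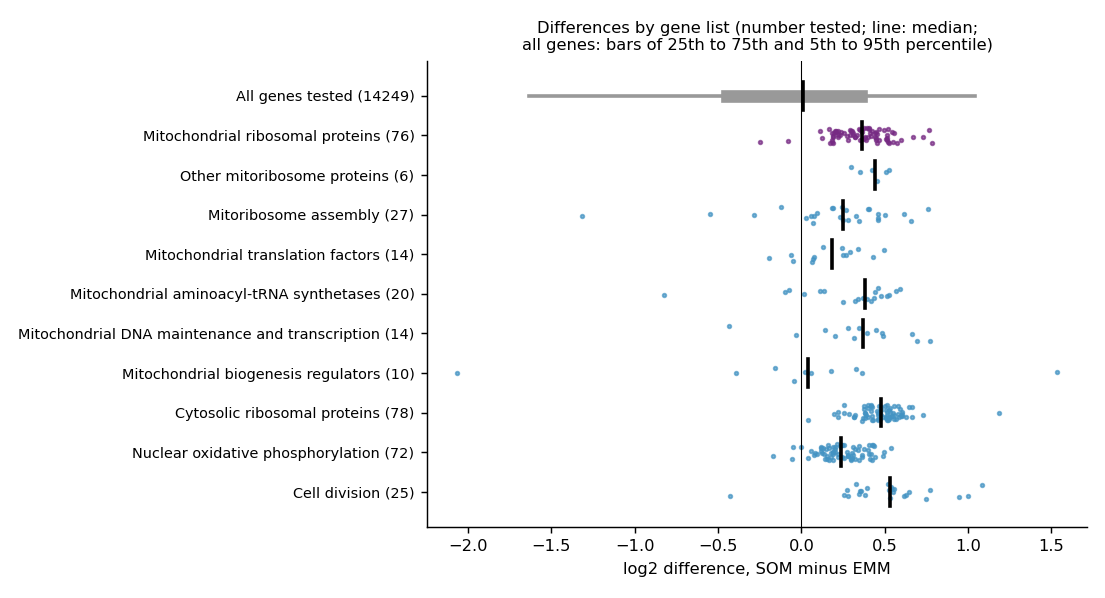
Log2 difference, SOM minus EMM (x axis), of each gene in 10 lists, with the number tested in brackets; points are genes and black lines are medians, and for all 14249 genes tested the bars span the 25th to 75th and the 5th to 95th percentiles. The median is 0.37 for the mitochondrial ribosomal protein genes, 0.48 for cytosolic ribosomal proteins, 0.24 for oxidative phosphorylation and 0.53 for cell division.

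Other features of the tissue moved with the same contrast, and their part in the differences of the ribosomal protein genes was not tested. Of 25 cell division genes, 24 were called toward SOM and 1 toward EMM. Their median was 0.53, with summed normalized counts of 76072 to 84974 in EMM and 115109 to 116886 in SOM. All 10 macrophage markers were higher in EMM (sums of 11096 to 13855 in EMM and 2669 to 3062 in SOM), as were all 6 red blood cell genes tested (114745 to 297215 and 58682 to 73583) and 7 of 8 pericyte and smooth muscle markers (52730 to 60079 and 4358 to 5508). Hba-a1 and Hba-a2 were listed at 0 in all libraries. Of 8 endothelial markers 6 were higher in EMM and 1 in SOM (15719 to 20513 and 11666 to 13751). Of 8 neuron markers 3 were higher in EMM and 5 in SOM (sums of 1160 to 1567 and 2916 to 3132). In skeletal muscle 4 of 5 tested markers were higher in EMM and 1 did not pass (410 to 642 and 134 to 174), with Myod1, Myog and Myf5 below the expression filter, and in surface ectoderm 2 of 7 were higher in EMM and 5 did not pass (761 to 1007 and 234 to 444). In these bulk samples, fewer cells of a type and less RNA per cell cannot be told apart.

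The 8 head mesenchyme markers were present in every library, and 5 of them were higher in EMM and 3 in SOM, with sums of 882034 to 1018759 in EMM and 366077 to 424184 in SOM. Libraries held 12.7 to 22.4 M reads in EMM and 16.8 to 33.7 M in SOM. The lowest group mean among the 76 genes was 242 normalized counts.

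Many of these genes start close to the start of a gene on the opposite strand. They are spread over 17 chromosomes, with 10 of them on chromosome 11 and 8 on chromosome 17. Of the 76 genes, 32 (42.1%) have a neighbour on the opposite strand whose annotated start lies within 1000 bases of their own. Of the tested protein-coding genes, 15.1% do. Such pairs are called head to head here, also where the 2 genes overlap. Mrpl46 and Mrps11 are each other's neighbours, with starts 412 bases apart and 173 exonic bases in common. The other 30 neighbours are no mitochondrial ribosomal protein genes, and 29 of them were tested. Of these, 20 (69.0%) were higher in SOM, 2 were higher in EMM and 7 did not pass the test, with a median difference of 0.26. Of all tested genes, 36.0% were called higher in SOM and 36.1% higher in EMM. Some of the pairs share exonic bases, and reads of such a pair could not be told apart without the strand. The comparison with neighbours was added after the values were seen.

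The neighbours had a wider spread than the ribosomal protein genes themselves, which ran from -0.25 to 0.79. The highest neighbour value, 1.33 for Lrrc46, rests on low means of 7.72 normalized counts in EMM and 19.5 in SOM. The other neighbours ran from -0.62 (Rab6a) to 0.80 (Zfp661). Mrpl43 lies beside Peo1 (Twnk), with which it shares 507 exonic bases (33.4% of its exonic length), so that reads of the pair could not be told apart without the strand. Mrps12 lies beside the seryl-tRNA synthetase gene Sars2 (log2 0.52), Mrpl36 beside Ndufs6 (log2 0.36) and Mrpl47 beside Ndufb5 (log2 0.26), the latter both subunits of respiratory complex I. Mrpl36 shares 30 exonic bases with Ndufs6, and Mrpl47 shares 24.2% of its exonic length with Ndufb5 and Actl6a together. Mrpl51 lies beside the condensin gene Ncapd2, which had a mean of 4631 in EMM and 7922 in SOM (log2 0.78, limma adjusted p = 8.42e-09). Beside Mrpl49 lies Fau, which encodes a cytosolic ribosomal protein (log2 0.43, limma adjusted p = 5.5e-06). The neighbours that were higher in EMM were Pnpla7, beside Mrpl41 (log2 -0.50, limma adjusted p = 7.1e-05), and the small GTPase gene Rab6a, beside Mrpl48 (log2 -0.62, limma adjusted p = 1.73e-08). Mrpl41 itself was higher in SOM by 0.45, so that this pair moved in opposite directions. Mrpl48 shares 708 exonic bases (8.7%) with Rab6a.

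**Figure D5:**
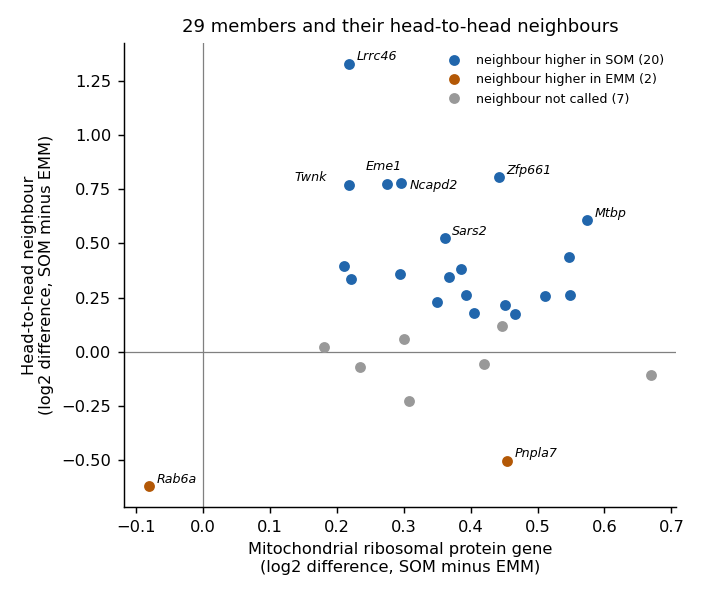
Log2 difference between SOM and EMM of 29 mitochondrial ribosomal protein genes (x axis) and of their head-to-head neighbours (y axis); each point is a pair, coloured by the call of the neighbour. Of the neighbours 20 were higher in SOM, 2, Pnpla7 and Rab6a, were higher in EMM, and 7 were not called.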

How the data were processed

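RNA of 8 pools of embryos was sequenced, 4 of EMM and 4 of SOM. The build mm10 and the tools bcl2fastq, STAR and DESeq2, with no versions, are named in the submitters' processing notes. The annotation, the read counter, its strand setting and the handling of reads that also match pseudogene copies were not given in the sources. The authors deposited a table whose library columns hold a signal per gene, the read count divided by a size factor, called normalized count here. It also holds the authors' log2 fold change (positive toward EMM, checked against the values), its standard error and Wald score, and the deposited p-value and adjusted p-value. All library values (100%) were whole multiples of the value of 1 read within 1 ppm, and the recovered reads gave the depths and the count tests.

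Genes with at least 10 normalized counts in at least 4 libraries (14249) were fitted as log2(normalized count + 1) with limma 3.58.1 (trend, robust) in R 4.3.3, on all 8 libraries without covariate, and called at a Benjamini-Hochberg adjusted p below 0.05. Each difference is the SOM value minus the EMM value on this scale. Alternatives were edgeR 4.0.16 and DESeq2 1.42.0 on the recovered reads, the authors' table, other scalings, filters and pseudocounts, a replicate block and leaving out libraries. The fit was tested on simulated data. No libraries of a group agreed within counting noise. The members, the 17 lists and the motifs were chosen with earlier results of these data known. The cytosolic ribosomal protein and oxidative phosphorylation rules, Mrp63, the windows of tested genes as a motif background and the neighbours were added after seeing the data. Values named in detail follow a rule: per subunit the 5 largest called differences in each direction and the 2 highest levels per kb, the Mrps18 genes and Mrps36; per list and direction the 2 genes of lowest adjusted p. The 5 uncalled members, Mrp63, Mrpl22, Mrps22, Mrps10 and the neighbours were named outside it, after their values were seen. Coordinates, exon lengths and neighbours are from GENCODE M21 (GRCm38), and 1-based. Promoters are from RefSeq, in which 9 members had no window.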

Additional observations from a re-analysis of the deposited data

Results flagged for a closer look

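In the SOM group, replicate 4 stood apart below the other 3 libraries in Mrps25 (811 normalized counts), Mrps33 (1156) and Mrps18c (624), by a gap to the nearest library that exceeded the limit of Dixon's test for 4 samples. These were 3 of 38 groups looked at, from 19 named genes in 2 regions, and chance alone flags some groups at this limit, about 5 in 100. SOM replicate 4 was also the lowest SOM library in 65 of the 76 genes. All 3 genes stayed higher in SOM in every alternative run.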

How the results depend on the processing

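Over the 21 alternatives, between 63 and 74 of the genes were higher in SOM and 1 was higher in EMM each time. When a library was left out, 63 to 72 were higher in SOM. Of the 71 calls, 62 held in every alternative and all 71 kept their direction. The 9 lost in at least 1 were Mrpl16, Mrpl17, Mrpl33, Mrpl35, Mrps14, Mrps23, Mrps24, Mrps31 and Mrps36. Scaling all libraries to equal totals moved the median of all genes from 0.01 to 0.12 and that of the 76 genes from 0.37 to 0.48, and Mrpl48 turned to 0.031; these changes come with the scaling itself. Mrpl1, Mrpl44, Mrps16 and Mrps28 passed the test under that scaling. Deviations of libraries with the same replicate number correlated at 0.126, 0.010, 0.042 and -0.020, so the numbers were not taken to pair the libraries, and with the replicate block 67 genes were higher in SOM and 1 in EMM, and Mrps36 was not called (0.21, limma adjusted p = 0.0645). The use of strand in counting is not known, and 4 pools a region limit the precision.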
